A study of Homo sapiens with 14 samples.

Results

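Messenger RNA of 10 genes was followed that together cover neuropeptide and granin cargo of secretory vesicles, a convertase that cuts it and an inhibitor of that convertase: SST, NPY, GAL, VGF, SCG2, SCG3, CHGA, CHGB, PCSK1 and PCSK1N. They were picked by gene symbol out of 19923 genes, and each had a row in the table of all 14 libraries. All 10 passed the filter on low counts in both batches, SST in batch 2 only through TET2KO 2. They were named with their changes after CoCl2 and in the TET2 knockouts already known. Their levels and fold changes against H2O and WT are therefore given as descriptions, without p-values.

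The cells were SK-N-BE2, an established MYCN-amplified neuroblastoma line, grown in RPMI1640 with serum and labelled BE2. RNA was read as strand-specific oligo-dT libraries in 2 labelled batches. In batch 1, cells received H2O, 10 µM CoCl2 or 50 µM CoCl2, a cobalt salt widely used to mimic hypoxia. In batch 2, untreated WT cells were set beside 3 cell populations labelled TET2KO 1, TET2KO 2 and TET2KO 3. TET2 encodes an enzyme that oxidises 5-methylcytosine to 5-hydroxymethylcytosine. Each of the 7 groups had 2 libraries. The labels do not give the length of the CoCl2 exposure, how the knockouts were made, whether each is 1 clone, or whether replicates were separate cultures, so the tests measure only the spread between these libraries.

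Neuropeptides are made as larger precursors that travel through the Golgi into dense-core vesicles, where convertases cut them at basic residues before regulated release. Granins are acidic proteins that condense in the same vesicles, help to form them and are themselves cut into peptides. Neuroblastoma arises from the sympathoadrenal lineage, which normally stores catecholamines together with granins and NPY, and chromogranin A is a clinical marker of such tumours.

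Library size ran from 31214128 to 39540111 counts in batch 1. It ran from 52095024 to 59263320 in batch 2, in which most counts are single reads of a pair. TET2 mRNA was not lower in any population labelled TET2KO. It was 64.8 and 70.8 CPM (TMM-normalised counts per 1e6) in WT and 68.2 to 91.1 CPM in the 6 libraries labelled TET2KO, so the mRNA level does not check those labels. Its log2 fold change was 0.21 (SE 0.051, edgeR adjusted p = 0.000664, lost without WT replicate 2) in TET2KO 1, 0.40 (SE 0.050, adjusted p = 3.85e-12) in TET2KO 2 and 0.080 (SE 0.051, adjusted p = 0.301) in TET2KO 3. The populations are therefore named by their labels. All 9 adrenergic neuroblastoma markers, among them HAND2, GATA3, TH and DBH, had counts in every group. The summed level of 10 mesenchymal markers was 1366 to 1369 CPM in H2O and 1789 to 1807 CPM at 50 µM, where VIM alone went from 1137 ± 3.38 to 1521 ± 12.7 CPM (SD, n = 2, as for all values after ±) and, of the 9 tested, 4 were called higher and 2 lower. It was 1602 to 1628 CPM in WT and 1055 to 1288 CPM in the libraries labelled TET2KO. COL3A1 averaged 155 ± 3.91 CPM in WT and between 12.9 and 27.5 CPM in these populations. TWIST1 averaged 60.0 ± 2.17 CPM in WT, 71.9 CPM in TET2KO 1, 50.4 CPM in TET2KO 2 and 73.9 CPM in TET2KO 3. Of the 10 tested, 2 were called higher and 7 lower in TET2KO 1, 0 and 5 in TET2KO 2, and 1 and 7 in TET2KO 3. PRRX1 was at 0 in TET2KO 1 and TET2KO 3, with 14 counts over the WT libraries and 26 in TET2KO 2. Summed endothelial markers were 11.35 CPM or more in both WT libraries and 1.45 to 4.63 CPM in the libraries labelled TET2KO, and 0.840 to 1.89 CPM over batch 1. The 4 measured Schwann cell markers summed to 3.25 to 11.9 CPM over all libraries, with SOX10 at 0 in TET2KO 1. The 3 immune markers summed to 5.09 to 5.31 CPM in H2O, 18.8 to 19.0 CPM at 50 µM, 10.5 to 11.7 CPM in WT and 7.09 to 15.5 CPM in the libraries labelled TET2KO, with PTPRC and CD3E at 0 in H2O, WT, TET2KO 2 and TET2KO 3. That sum is almost wholly CD68, which averaged 5.20 ± 0.156 CPM without cobalt and 18.9 ± 0.163 CPM with 50 µM, where PTPRC and CD3E averaged 0.0160 and 0.0580 CPM. The part of these shifts in the results below was not tested. In such bulk RNA, fewer cells with a transcript and less transcript per cell cannot be told apart.

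The 10 genes are spread over 9 chromosomes of GRCh38, with the spans of all exons counted as follows. Of the peptide precursors, SST lies at chr3:187668912-187670394, NPY at chr7:24284188-24291862, GAL at chr11:68683779-68691175 and VGF at chr7:101162509-101165569. The granins SCG2, SCG3, CHGA and CHGB lie at chr2:223596940-223602361, chr15:51681492-51721026, chr14:92923150-92935285 and chr20:5911510-5925353. PCSK1 lies at chr5:96390333-96434143 and PCSK1N at chrX:48831096-48835610.

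Levels between genes were compared as RPKM (CPM divided by the exon length in kilobases). In H2O the 2 chromogranins led, with CHGA at 737 ± 3.23 RPKM and CHGB at 654 ± 8.91 RPKM (SD, n = 2), at ranks 11 and 13 of 19923 genes. They were followed by SCG2 at 310 ± 5.97, GAL at 256 ± 0.509, VGF at 94.96 ± 0.0498, SCG3 at 89.8 ± 0.650 and NPY at 82.98 ± 0.594 RPKM. Far lower stood PCSK1N at 7.08 ± 0.216, PCSK1 at 2.67 ± 0.0488 and SST at 1.15 ± 0.196 RPKM, at ranks 6018, 8971 and 10491. No neighbours in that order overlapped between their libraries. At 10 µM PCSK1 (2.18 to 2.31 RPKM) and SST (1.60 to 2.67 RPKM) did overlap. In WT, SCG2 (316 to 322 RPKM) and CHGA (303 to 325 RPKM) overlapped at the top, ahead of GAL at 274 ± 1.62 and CHGB at 246 ± 5.10 RPKM. On the CPM scale, CHGB was 2.66 times, CHGA 2.35 times and SST 7.76 times as high in H2O as in WT, while the other 7 genes had ratios from 0.704 (VGF) to 1.12. These controls belong to different batches and count settings, so batch and treatment cannot be told apart. The 10 genes took 0.636% to 0.724% of all counts in batch 1 and 0.383% to 0.400% in batch 2.

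The sequence upstream of the transcript start was available from RefSeq (GRCh38.p14) for 7 of the 10 genes: SST, NPY, VGF, SCG3, CHGA, PCSK1 (with 2 starts) and PCSK1N. GAL, SCG2 and CHGB had no matched entry. In the 250 bases before the start, the palindromic cAMP response element (CRE) TGACGTCA occurred in SST, VGF, CHGA and the first start of PCSK1. The CRE is the site bound by CREB and its relatives, and the somatostatin gene is the classical example. The full 8 letters occurred in 1.65% of the 35116 RefSeq promoters of the same length, and the 5-letter core TGACG on either strand, which the full site contains, in 21.2%. The element lay 47 to 40 bases before the start in SST, 79 to 72 in VGF, 54 to 47 in CHGA and 77 to 70 in PCSK1. The matching flanks are shown because these 4 genes share the element and differ in how they moved, with each TGACG match on either strand in capitals, 5′ to 3′ in the direction of the gene.
SST, minus strand, chr3:187670400-187670644: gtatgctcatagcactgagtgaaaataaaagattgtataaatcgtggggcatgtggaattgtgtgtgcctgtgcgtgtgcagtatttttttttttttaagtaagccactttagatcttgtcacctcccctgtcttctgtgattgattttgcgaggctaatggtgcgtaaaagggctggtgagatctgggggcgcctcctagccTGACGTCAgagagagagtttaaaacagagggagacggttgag
VGF, minus strand, chr7:101165594-101165819: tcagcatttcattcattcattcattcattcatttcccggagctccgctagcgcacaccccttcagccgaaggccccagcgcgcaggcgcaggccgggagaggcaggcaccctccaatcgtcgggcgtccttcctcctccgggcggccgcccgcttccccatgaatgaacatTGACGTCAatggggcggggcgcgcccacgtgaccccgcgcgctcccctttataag
PCSK1, first start, minus strand, chr5:96433281-96433498: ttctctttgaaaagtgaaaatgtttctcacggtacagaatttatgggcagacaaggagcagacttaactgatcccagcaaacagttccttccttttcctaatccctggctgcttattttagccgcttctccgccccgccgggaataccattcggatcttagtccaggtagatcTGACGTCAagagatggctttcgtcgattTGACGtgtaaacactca
CHGA, plus strand, chr14:92923086-92923113, element and 10 bases on each side: gcggcaccgcTGACGTCAtttccggggt
The first 3 flanks end before the first base in these windows that GENCODE release 29, an older release than that of the counts, marks as exon of the gene. The PCSK1 flank lies inside the span given above, because both RefSeq starts are downstream of its outermost counted exon, while the CHGA element lies inside a first exon of that release. A match is a description of the letters and not evidence that a factor binds there.

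The hypoxia response core ACGTG was present in VGF (on both strands, as CACGTG, 54 to 49 bases before the start) and in PCSK1 (47 to 43 bases before its first start), against 18.5% of all promoters. In PCSK1 these letters overlap the second TGACG printed above. The form GCGTG was found in SST, NPY, SCG3, CHGA, the second start of PCSK1 and PCSK1N, against 32.2% of all promoters. An AP-1 site, TGANTCA, occurred in PCSK1N alone, against 6.57%. CpG dinucleotides, the usual site of 5-methylcytosine, numbered 7 in SST and 10 at each start of PCSK1, below the median of 11 over all promoters, and 27 in VGF, 24 in NPY, 21 in CHGA, 16 in SCG3 and 15 in PCSK1N. The map of motif matches shows these positions.

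The CoCl2 comparisons ask how the cargo genes respond to cobalt at each dose. At 10 µM, 6 of the 10 genes were called higher and 3 lower than in H2O (edgeR's quasi-likelihood test, Benjamini-Hochberg adjusted p under 0.05 over all 13636 genes tested), where 11.6% of all genes were called higher and 11.1% lower. At 50 µM, 5 were called higher and 4 lower, against 30.4% and 31.1% of all genes. These contrasts were among those the genes were chosen on, and nothing is read from the counts. At 50 µM 4.66% of the tested genes were called with a change of at least 2-fold, and of the 10 genes SST alone passed that size.

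Somatostatin, a peptide that restrains hormone release and cell growth, was the scarcest of the 10 in H2O and moved furthest. SST had 24 and 31 counts in H2O, 34 and 63 at 10 µM, and 359 and 402 at 50 µM. In CPM these were 0.613 and 0.782, then 0.968 and 1.62, then 11.5 and 11.3. No group overlapped another, and both 50 µM libraries stood far above the other 4. The log2 fold change against H2O was 0.91 (SE 0.25) at 10 µM and 4.02 (SE 0.15) at 50 µM. The 10 µM call was lost when H2O replicate 1 was left out (0.74), when 10 µM replicate 2 was left out (0.47) and in a fit of all 14 libraries (0.91). Per length, SST passed PCSK1N and PCSK1 at 50 µM, where it reached 18.7 ± 0.280 RPKM.

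NPY, a co-transmitter of sympathetic nerves, was lower at both doses. It measured 74.5 and 73.7 CPM in H2O, 64.0 and 65.8 CPM at 10 µM, and 63.3 and 64.1 CPM at 50 µM. All 4 treated libraries lay below both H2O libraries, and the doses overlapped each other. The log2 fold change was -0.19 (SE 0.032) at 10 µM and -0.22 (SE 0.033) at 50 µM. Galanin, a neuropeptide of sympathetic and tumour cells, was lower in steps. GAL measured 333 and 332 CPM in H2O, 315 and 320 CPM at 10 µM, and 271 and 271 CPM at 50 µM, with no overlap. Its log2 fold change was -0.064 (SE 0.019) at 10 µM, a call that was lost without H2O replicate 1 and without 10 µM replicate 1, with DESeq2, with the older quasi-likelihood method and in the fit of all 14 libraries. At 50 µM it was -0.29 (SE 0.019).

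VGF, a granin-like precursor first known as a nerve growth factor response gene, was higher at both doses. It measured 255 and 254 CPM in H2O, 289 and 290 CPM at 10 µM, and 305 and 309 CPM at 50 µM. The log2 fold change was 0.18 (SE 0.019) and then 0.27 (SE 0.020), and the 3 groups did not overlap. Of the 4 genes with a full CRE, SST and VGF were thus higher at 50 µM, CHGA was lower and PCSK1 was not called.

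The granins split. SCG2, the precursor of secretoneurin, measured 789 and 811 CPM in H2O, 844 and 836 CPM at 10 µM, and 1030 and 1020 CPM at 50 µM. Its groups did not overlap, and its log2 fold change was 0.071 (SE 0.015) at 10 µM, not called without H2O replicate 1 or in the fit of all 14 libraries, and 0.36 (SE 0.015) at 50 µM. SCG3, which tethers chromogranin A to the vesicle membrane, measured 283 and 286 CPM in H2O, 310 and 306 CPM at 10 µM, and 343 and 347 CPM at 50 µM. It too rose without overlap, with log2 fold changes of 0.11 (SE 0.019) and 0.28 (SE 0.019).

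The chromogranins went the other way at the higher dose. CHGA measured 2222 and 2236 CPM in H2O, 2222 and 2206 CPM at 10 µM, and 1781 and 1820 CPM at 50 µM. H2O and 10 µM overlapped (log2 fold change -0.0096, SE 0.013, not called), and both 50 µM libraries were lower (-0.31, SE 0.013). CHGB measured 2882 and 2938 CPM in H2O, 3212 and 3172 CPM at 10 µM, and 2519 and 2543 CPM at 50 µM. It was highest at 10 µM (0.13, SE 0.013) and lowest at 50 µM (-0.20, SE 0.013), so its direction against H2O turned between the doses.

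PCSK1, the prohormone convertase of regulated secretion, also did not follow the dose in order. It measured 14.1 and 14.5 CPM in H2O, 12.4 and 11.7 CPM at 10 µM, and 13.9 and 14.8 CPM at 50 µM. Only the 10 µM libraries stood apart (log2 fold change -0.25, SE 0.069), a call lost without 10 µM replicate 2, with DESeq2 and in the fit of all 14 libraries, while 50 µM overlapped H2O (0.0088, SE 0.068). PCSK1N, which encodes proSAAS, an inhibitor of that convertase, measured 9.27 and 9.68 CPM in H2O, 10.4 and 11.6 CPM at 10 µM, and 15.1 and 14.7 CPM at 50 µM. Its groups did not overlap. The log2 fold change was 0.21 (SE 0.078) at 10 µM, where the call was lost without either H2O replicate, without 10 µM replicate 2, with DESeq2, with no filter on low counts and in the fit of all 14 libraries, and 0.65 (SE 0.074) at 50 µM.

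**Figure D1:**
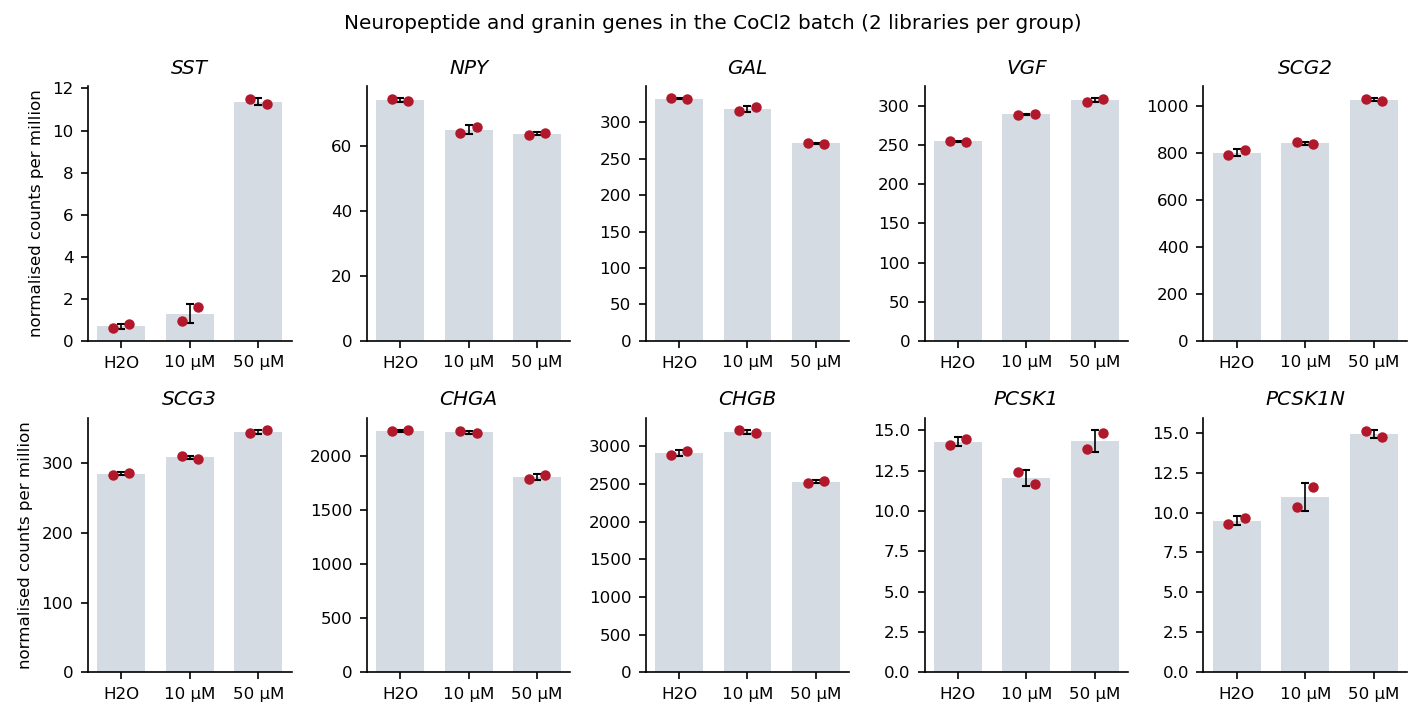
Normalised level (CPM) of each gene in H2O, 10 µM and 50 µM CoCl2, with points for the 2 libraries of a group, bars for the mean and error bars for the SD. SST runs from 0.613 CPM in the lowest H2O library to 11.5 CPM in the highest 50 µM library, while CHGB peaks at 10 µM and PCSK1 dips there.

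The 2 doses were also compared directly. This comparison was not itself one the genes were chosen on. Its values are, however, the differences between the 2 changes against H2O that were known when the genes were chosen. Its p-values are therefore no independent support. Of the 10 genes, 6 were higher and 3 lower at 50 µM than at 10 µM, against 26.2% and 26.5% of all genes (edgeR's quasi-likelihood test, adjusted over all genes). SST rose by a further log2 fold change of 3.11 (SE 0.13, edgeR adjusted p = 1.58e-52), PCSK1N by 0.44 (SE 0.073, adjusted p = 5.88e-08) and SCG2 by 0.29 (SE 0.015, adjusted p = 6.32e-42). SCG3 rose by 0.16 (SE 0.019, edgeR adjusted p = 3.95e-14) and VGF by 0.087 (SE 0.019, adjusted p = 5.63e-05). CHGB fell by 0.33 (SE 0.013, edgeR adjusted p = 8.97e-59), CHGA by 0.30 (SE 0.013, adjusted p = 2.08e-50) and GAL by 0.23 (SE 0.019, adjusted p = 2.65e-22). PCSK1 was higher by 0.26 (SE 0.071, edgeR adjusted p = 0.00114), which rested in part on 50 µM replicate 2, since without it the difference was 0.21 (adjusted p = 0.0531). NPY differed by -0.028 (SE 0.034, edgeR adjusted p = 0.516), and its libraries overlapped. In each of the 13 alternatives the other 8 called genes remained called in the same direction.

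The batch 2 comparisons ask how the same genes stand in the cells labelled as TET2 knockouts. Against WT, 5 of the 10 genes were called higher and 2 lower in TET2KO 1, where 7.79% of the 14061 genes tested were called higher and 9.72% lower. In TET2KO 2, 4, SST among them, were called higher and 2 lower, against 12% and 14.3%. In TET2KO 3, 5 were called higher and 2 lower, against 8.9% and 9.96%. These contrasts, too, were used in choosing the genes, and nothing is read from the counts. The 3 comparisons share the WT libraries. SCG2 was called higher, and CHGA and CHGB lower, in all 3. The share of all genes called in 1 direction in all 3 was not computed.

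SST was almost silent in batch 2, with 4 and 6 counts in WT, 2 and 0 in TET2KO 1, 26 and 14 in TET2KO 2, and 0 and 0 in TET2KO 3. Every one of these counts was even, so they stand for 5, 1, 20 and 0 read pairs over the 2 libraries of a group. On the scale of CPM but in read pairs, the 0 pairs of TET2KO 3 allow a level of up to 0.0539 over the group (3 pairs), against 0.0898 in WT and 0.368 in TET2KO 2. The level in TET2KO 2 was 4.10 times that in WT, on 20 and 5 read pairs, which is a description and not a test. It was 6.82 times the limit for TET2KO 3. That limit covers counting error in TET2KO 3 only, and neither ratio takes account of counting error in TET2KO 2 or of the spread between libraries. SST passed the filter on low counts in this batch only through TET2KO 2. Its call in TET2KO 2 against WT (log2 fold change 1.97, SE 0.77) was lost without either WT replicate, without TET2KO 2 replicate 1, with no filter on low counts and with the older quasi-likelihood method, and DESeq2 gave no adjusted p.

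NPY stood out in TET2KO 2. It measured 89.8 and 91.7 CPM in WT, 96.1 and 106 CPM in TET2KO 1, 183 and 183 CPM in TET2KO 2, and 99.5 and 93.8 CPM in TET2KO 3. Both TET2KO 2 libraries lay far above the other 6, which spanned a narrow range. The log2 fold change was 1.01 (SE 0.043) in TET2KO 2, 0.16 (SE 0.046) in TET2KO 1 and 0.091 (SE 0.046, not called) in TET2KO 3. The TET2KO 1 call was lost without WT replicate 1 and without TET2KO 1 replicate 2, where the value was 0.082. The summed adrenergic markers were also lowest in TET2KO 2, at 5579 to 5629 CPM against 7438 to 7800 CPM in the other 6 libraries of the batch. MYCN carried that drop, at 4639 ± 55.7 CPM in WT and 2826 ± 15.3 CPM in TET2KO 2, while GATA3 went from 184 ± 4.67 to 247 ± 2.56 CPM, and of the 8 markers tested 1 was called higher and 3 lower. Their part in the NPY result was not tested. Per length, NPY moved from the sixth of the 10 genes in WT to the fourth in TET2KO 2, at 205 ± 0.546 RPKM, above CHGB at 190 ± 3.51 RPKM.

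GAL and VGF were higher in TET2KO 1 and TET2KO 3 but not in TET2KO 2. GAL measured 354 and 357 CPM in WT, 399 and 427 CPM in TET2KO 1, 335 and 337 CPM in TET2KO 2, and 388 and 381 CPM in TET2KO 3. Its log2 fold changes were 0.22 (SE 0.033), -0.083 (SE 0.033, not called) and 0.11 (SE 0.033). The TET2KO 2 value became a call when either TET2KO 3 library was left out, with RLE factors and in the fit of all 14 libraries, and the TET2KO 3 call was lost without WT replicate 1 or TET2KO 3 replicate 1. VGF measured 359 and 363 CPM in WT, 451 and 475 CPM in TET2KO 1, 341 and 349 CPM in TET2KO 2, and 418 and 419 CPM in TET2KO 3. Its log2 fold changes were 0.36 (SE 0.033), -0.066 (SE 0.033, not called) and 0.21 (SE 0.033). For both genes the 4 libraries of TET2KO 1 and TET2KO 3 lay above WT and the 2 of TET2KO 2 below it.

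SCG2 was higher in all 3 populations. It measured 815 and 831 CPM in WT and 933 to 1009 CPM in the 6 libraries labelled TET2KO, with no overlap. Its log2 fold changes were 0.21, 0.29 and 0.23 (each SE 0.029) in TET2KO 1, 2 and 3. SCG3 measured 258 and 251 CPM in WT and 252 to 276 CPM in the libraries labelled TET2KO. Its values of 0.098 (SE 0.035) in TET2KO 1 and 0.10 (SE 0.035) in TET2KO 3 were called. The TET2KO 1 call was lost when any one of the 4 libraries compared was left out, and with the replicate block. The TET2KO 3 call was lost without WT replicate 2 or either TET2KO 3 library. In TET2KO 2 it overlapped WT (0.026, SE 0.035, not called).

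CHGA measured 915 and 983 CPM in WT, 793 and 782 CPM in TET2KO 1, 874 and 915 CPM in TET2KO 2, and 768 and 833 CPM in TET2KO 3. Its log2 fold changes were -0.27 (SE 0.031), -0.086 (SE 0.030) and -0.25 (SE 0.031). In TET2KO 2 the highest library lay just under the lowest WT library, and that call was lost without WT replicate 2, without TET2KO 2 replicate 1 and with DESeq2. CHGB measured 1080 and 1112 CPM in WT, 842 and 842 CPM in TET2KO 1, 834 and 857 CPM in TET2KO 2, and 949 and 982 CPM in TET2KO 3. All 6 libraries labelled TET2KO lay below WT, with log2 fold changes of -0.38 (SE 0.029), -0.37 (SE 0.029) and -0.18 (SE 0.029). The CHGB calls held in all 16 alternatives of each of the 3 comparisons.

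PCSK1 measured 13.3 and 12.3 CPM in WT, 15.2 and 14.3 CPM in TET2KO 1, 10.8 and 12.3 CPM in TET2KO 2, and 15.3 and 15.0 CPM in TET2KO 3, and it was called in no population (0.20, SE 0.098, then -0.15, SE 0.10, then 0.25, SE 0.097). The fit of all 14 libraries did call it in TET2KO 1 and TET2KO 3. TET2KO 2 overlapped WT, while the other 2 populations lay above it. PCSK1N measured 10.5 and 9.08 CPM in WT, 10.2 and 13.2 CPM in TET2KO 1, 12.8 and 12.4 CPM in TET2KO 2, and 12.5 and 12.4 CPM in TET2KO 3. Its libraries in TET2KO 1 were spread widely and overlapped WT (0.27, SE 0.11, not called, but called at 0.44 without TET2KO 1 replicate 1 and in the fit of all 14 libraries). Its calls in TET2KO 2 (0.36, SE 0.11) and TET2KO 3 (0.35, SE 0.11) were lost without WT replicate 2 and without the first replicate of the population itself.

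**Figure D2:**
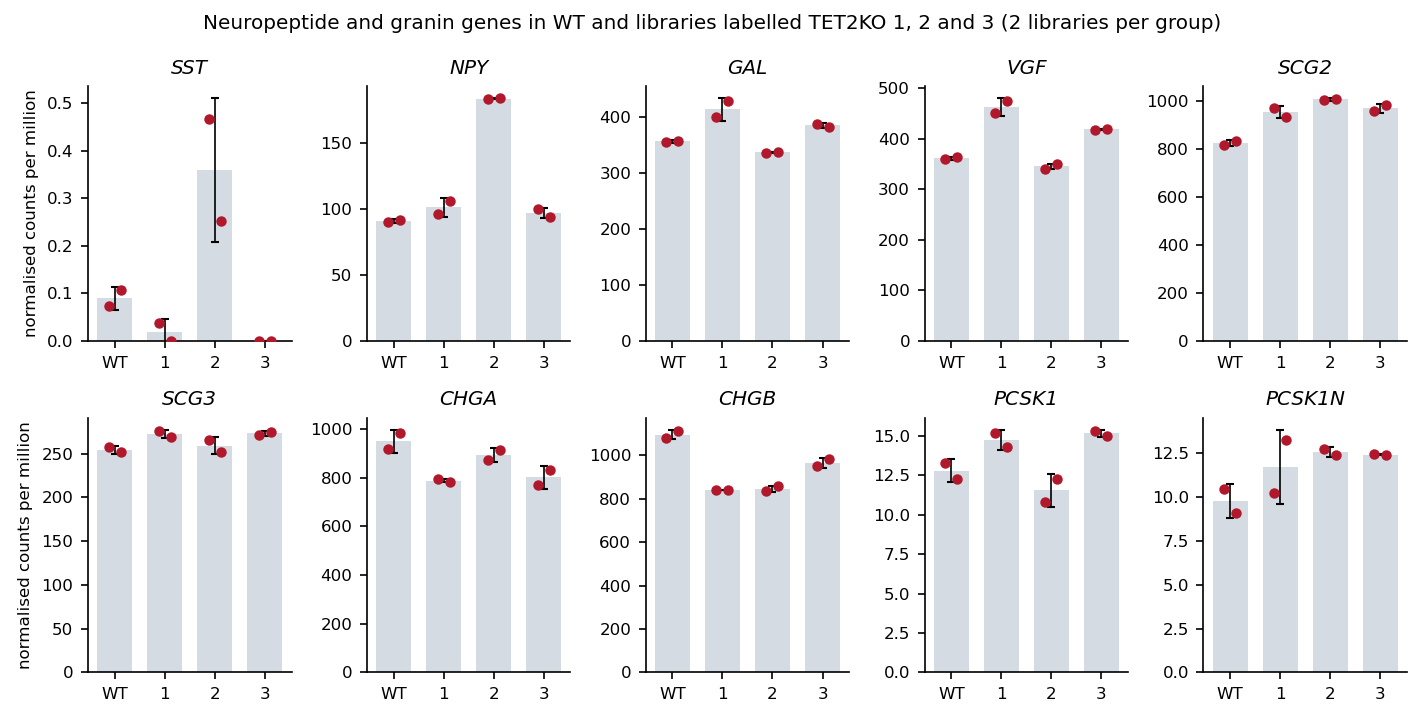
Normalised level (CPM) of each gene in WT and in the populations labelled TET2KO 1, 2 and 3, with points for the 2 libraries of a group, bars for the mean and error bars for the SD. NPY is at 183 CPM in both TET2KO 2 libraries against 89.8 to 106 CPM in the other 6, and CHGB is below WT in all 6 libraries labelled TET2KO.

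The 3 populations labelled TET2KO were tested against each other. WT does not enter this comparison, but the gaps below are differences between changes against WT that were known when the genes were chosen. The p-values are therefore no independent support. SST is left out here, because it was tested in batch 2 only through TET2KO 2, where it is high. Of the other 9 genes 6 differed, against 37.6% of all genes (edgeR's quasi-likelihood F-test, adjusted over all genes). The gap between the highest and the lowest of the 3 log2 fold changes was 0.92 for NPY (edgeR adjusted p = 4.82e-62), 0.42 for VGF (adjusted p = 2.50e-26) and 0.30 for GAL (adjusted p = 1.96e-14). It was 0.20 for CHGB (edgeR adjusted p = 9.55e-11) and 0.18 for CHGA (adjusted p = 6.26e-08). PCSK1 differed by 0.39 (edgeR adjusted p = 0.000695), and without TET2KO 2 replicate 1 by 0.31 (adjusted p = 0.101). SCG2 (0.080, edgeR adjusted p = 0.0553), SCG3 (0.075, adjusted p = 0.121) and PCSK1N (0.093, adjusted p = 0.738) did not pass. SCG2 passed without TET2KO 1 replicate 1 (0.11, edgeR adjusted p = 0.0392) and, like SCG3, in the fit of all 14 libraries.

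Set side by side, the direction of SCG2 (higher) and of CHGA and CHGB (lower) was the same at 50 µM CoCl2 and in each population labelled TET2KO. At 10 µM SCG2 and CHGB were called higher and CHGA was not called. The CHGA call in TET2KO 2 was lost in some alternatives, as given above. These comparisons were among those the genes were chosen on. At 50 µM alone 30.4% of all genes were called higher and 31.1% lower. The share of all genes that keep 1 direction over these comparisons was not computed, so nothing is read from the shared directions. The CoCl2 comparisons share no library with the others, while the 3 with WT share both WT libraries. PCSK1N was higher in all 5 comparisons with a control, called in 4. GAL was lower at both CoCl2 doses and higher in TET2KO 1 and TET2KO 3, and NPY was lower at both doses and higher in TET2KO 1 and TET2KO 2. The plot of log2 fold changes places the 9 genes other than SST beside one another.

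**Figure D3:**
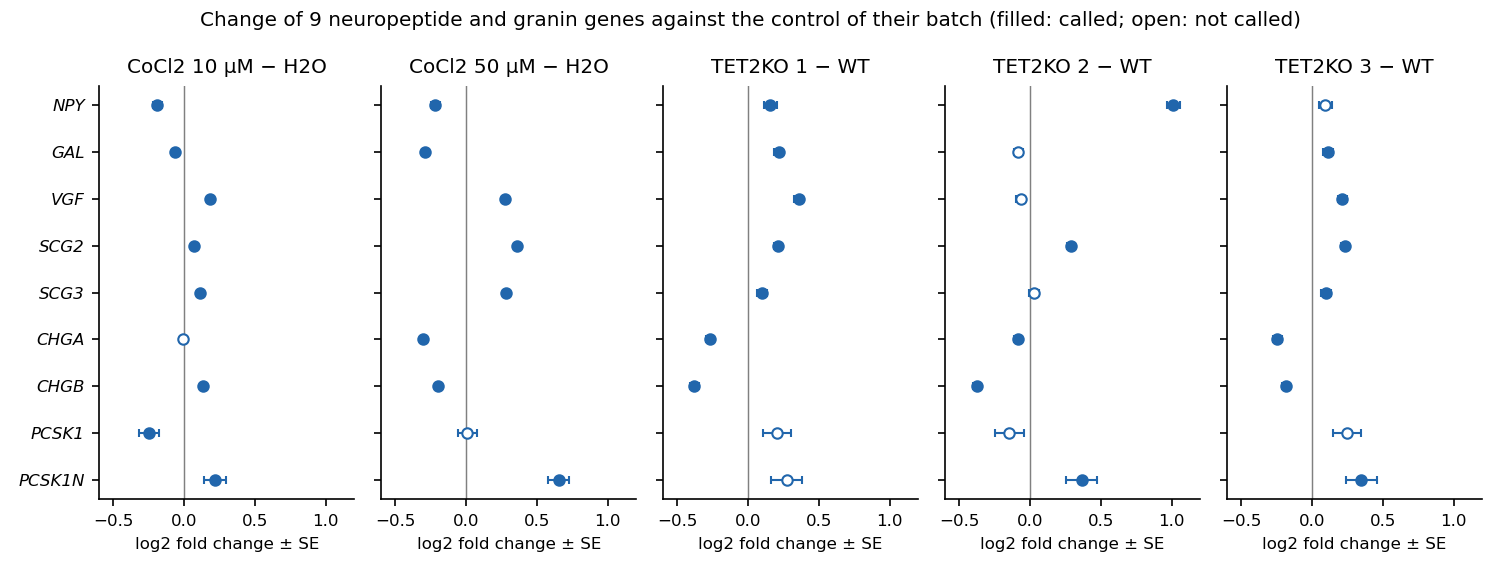
Log2 fold change with its SE of 9 genes in the 5 comparisons with H2O or WT, filled where called at an adjusted p under 0.05 and open where not. SCG2 is to the right of 0 in all 5 panels, CHGA and CHGB are to the left in the 50 µM panel and the 3 TET2KO panels, and NPY reaches 1.01 in TET2KO 2.

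For likeness, each gene was set against the 13372 genes tested in both batches by the Euclidean distance over the 5 log2 fold changes against H2O or WT. Among the 3 nearest genes of each were SBF1 (0.041), ATP2C1 (0.042) and RPS18 (0.048) for SCG3, CPNE3 (0.083) and DPYSL5 (0.089) for GAL, and GPRIN3 (0.079) and PLD3 (0.085) for SCG2. Nearest to CHGA were EPHA7, SEMA4G and SPAG16 (each 0.085) and nearest to CHGB was MOB3C (0.088). PELO and CNTFR (each 0.14) were nearest to VGF, ZNF543 (0.15) to PCSK1N, PELI3 (0.15) to PCSK1 and TTC39B (0.21) to NPY. SST had no close neighbour, with the nearest gene at a distance of 3.75, and its values in batch 2 rest on few counts.

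The other genes of the pathway were taken from 5 lists, drawn up by function with earlier results of these data known. Genes are named for the size of their change, and some were also called in comparisons in which they are not named. Among 12 prohormone processing enzymes, 3 were higher and 2 lower at 50 µM, where 30.4% of all genes were higher and 31.1% lower (median log2 fold change 0.069, against 0.0021 over all tested genes). Those that rose were CPE, which trims basic residues after cleavage (0.34, SE 0.022, edgeR adjusted p = 2.57e-33), the peptide-amidating enzyme gene PAM (0.16, SE 0.019, adjusted p = 3.39e-13) and QPCT, which forms N-terminal pyroglutamate, on 16 and 28 counts. PCSK2, the other neuroendocrine convertase, was called lower at both doses, with 37 counts over the 2 H2O libraries, 12 at 10 µM and 3 at 50 µM. It passed the filter on low counts in batch 1 only through H2O, where it is high, so no p-value is given. At 10 µM, where 11.6% of all genes were higher and 11.1% lower, 3 were higher and 2 lower, with CPE at 0.22 (SE 0.022, edgeR adjusted p = 7.06e-17) and FURIN, the ubiquitous convertase, at -0.14 (SE 0.042, adjusted p = 0.00690). The QPCT call (1.03, SE 0.47, edgeR adjusted p = 0.0487) was lost without H2O replicate 2 or 50 µM replicate 1, as were those of PCSK2 and FURIN at 10 µM without H2O replicate 2 or 10 µM replicate 1. All of these calls were also lost in the fit of all 14 libraries, and those of QPCT and FURIN with DESeq2. That of QPCT was lost with no filter on low counts and with the older quasi-likelihood method as well. The 5 calls at 10 µM became 1 without H2O replicate 2, 3 without H2O replicate 1 or either 10 µM replicate, and 1 with DESeq2 or in the fit of all 14 libraries.

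In batch 2, 10 of the 12 were tested, with 2 higher and 2 lower in TET2KO 1, 0 and 1 in TET2KO 2, and 1 and 2 in TET2KO 3 (1 call in all without WT replicate 1). The shares over all genes were 7.79% and 9.72%, 12% and 14.3%, and 8.9% and 9.96%. PAM fell by 0.17 (SE 0.041, edgeR adjusted p = 0.000744) in TET2KO 1, by 0.21 (SE 0.042, adjusted p = 1.49e-05) in TET2KO 2 and by 0.13 (SE 0.041, adjusted p = 0.0104) in TET2KO 3. In TET2KO 1 the tyrosine sulfotransferase gene TPST2 rose by 0.48 (SE 0.075, edgeR adjusted p = 3.87e-08) and SCG5, the chaperone of PCSK2, by 0.42 (SE 0.11, adjusted p = 0.00306), and PCSK7 fell by 0.23 (SE 0.069, adjusted p = 0.0113). CPE rose in TET2KO 3 by 0.32 (SE 0.047, edgeR adjusted p = 5.59e-09), and the carboxypeptidase gene CPD fell there by 0.13 (SE 0.044, adjusted p = 0.0177). The call of SCG5 was lost without WT replicate 2, that of PCSK7 without WT replicate 1 or TET2KO 1 replicate 1, and in TET2KO 3 that of CPD without WT replicate 1 or TET2KO 3 replicate 1 and that of PAM without WT replicate 1 or TET2KO 3 replicate 2.

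Of 25 genes of dense-core vesicle formation and release, 23 were tested, and 2 were higher and 5 lower at 10 µM, and 8 higher and 10 lower at 50 µM (median log2 fold change -0.029 and -0.0085), beside 11.6% and 11.1%, then 30.4% and 31.1%, of all genes. The 7 calls at 10 µM became 2 with DESeq2 and 3 in the fit of all 14 libraries. BAIAP3, a relative of the Munc13 priming factors, rose at 50 µM by 1.81 (SE 0.29, edgeR adjusted p = 2.21e-08). The vesicular monoamine transporter gene SLC18A2 fell by 0.65 (SE 0.15, edgeR adjusted p = 0.000469, not called by DESeq2) at 10 µM and by 1.42 (SE 0.18, adjusted p = 3.08e-12) at 50 µM. The calcium sensor gene SYT7 fell by 0.19 (SE 0.056, edgeR adjusted p = 0.00519) and then by 0.79 (SE 0.063, adjusted p = 1.82e-24). Its 10 µM call was lost without H2O replicate 2 or 10 µM replicate 1, with DESeq2 and in the fit of all 14 libraries.

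In TET2KO 1, 7 of the 23 were higher and 5 lower, in TET2KO 2 5 and 7, and in TET2KO 3 8 and 2, beside 7.79% and 9.72%, 12% and 14.3%, and 8.9% and 9.96% of all genes. The 12 calls in TET2KO 1 became 6 without WT replicate 1 and 7 without TET2KO 1 replicate 2, and the 10 in TET2KO 3 became 6 without TET2KO 3 replicate 1. SLC18A2 fell by 1.36 (SE 0.18, edgeR adjusted p = 1.04e-10) in TET2KO 1, by 0.49 (SE 0.16, adjusted p = 0.0101, lost without WT replicate 2 or TET2KO 2 replicate 1) in TET2KO 2 and by 1.02 (SE 0.17, adjusted p = 3.39e-07) in TET2KO 3. The related transporter gene SLC18A1 rose by 0.47 (SE 0.055, edgeR adjusted p = 7.39e-14) in TET2KO 1 and by 0.33 (SE 0.055, adjusted p = 3.65e-07) in TET2KO 3. The priming factor gene CADPS rose by 0.41 (SE 0.051, edgeR adjusted p = 4.44e-12) in TET2KO 1, by 0.22 (SE 0.052, adjusted p = 0.000301) in TET2KO 2 and by 0.35 (SE 0.051, adjusted p = 5.41e-09) in TET2KO 3. SYT7 fell by 0.38 (SE 0.081, edgeR adjusted p = 8.59e-05), 1.00 (SE 0.088, adjusted p = 7.36e-22) and 0.30 (SE 0.080, adjusted p = 0.00207, lost without TET2KO 3 replicate 1) in TET2KO 1, 2 and 3. In TET2KO 2 the vesicle-forming gene HID1 fell by 0.60 (SE 0.10, edgeR adjusted p = 7.43e-07) and RAB27A by 0.56 (SE 0.13, adjusted p = 0.000150), the last a call lost without WT replicate 1.

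Of 30 other neuropeptide precursors, 13 were tested in batch 1. At 10 µM 1 was higher and 2 lower, and at 50 µM 4 were higher and 2 lower (median log2 fold change -0.056 and 0.11). Over all genes 11.6% were higher and 11.1% lower at 10 µM, and 30.4% and 31.1% at 50 µM. CRH, the corticotropin-releasing hormone, measured 17.2 ± 0.198 CPM in H2O, 28.7 ± 0.00143 CPM at 10 µM and 73.2 ± 0.624 CPM at 50 µM. Its log2 fold change was 0.74 (SE 0.052, edgeR adjusted p = 1.69e-27) and then 2.09 (SE 0.044, adjusted p = 5.04e-96). CARTPT, another peptide precursor, fell from 5.35 ± 0.570 to 3.78 ± 0.149 and 0.792 ± 0.0117 CPM. Its log2 fold change was -0.50 (SE 0.12, edgeR adjusted p = 0.000539) and then -2.75 (SE 0.18, adjusted p = 3.74e-32). The 10 µM call was lost without H2O replicate 1, with DESeq2 and in the fit of all 14 libraries. SST and CRH thus rose and CARTPT fell beyond 2-fold at the same dose. VIP fell at 10 µM by 0.19 (SE 0.042, edgeR adjusted p = 0.000200), a call lost in the fit of all 14 libraries. ADM, the adrenomedullin precursor, rose at 50 µM by 0.64 (SE 0.057, edgeR adjusted p = 5.68e-21). NTS, the neurotensin precursor, was called higher at 50 µM on 17 and 32 counts. It passed the filter on low counts in batch 1 only because of 50 µM, where it is high, so no p-value is given for this call. That call was lost without either H2O replicate or 50 µM replicate 2, with DESeq2 and in the fit of all 14 libraries.

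In batch 2, 14 were tested, with 4 higher and 3 lower in TET2KO 1, 3 and 1 in TET2KO 2, and 3 and 3 in TET2KO 3, where the 6 calls became 3 without WT replicate 1 or TET2KO 3 replicate 1. The shares over all genes were 7.79% and 9.72%, 12% and 14.3%, and 8.9% and 9.96%. NTS rose in all 3 populations, from 18 counts over the WT libraries to 84, 76 and 57 (edgeR adjusted p = 0.00115, 0.00268 and 0.0404), the last lost without any one of the 4 libraries compared. ADCYAP1, the PACAP precursor, fell by 1.38 (SE 0.21, edgeR adjusted p = 1.73e-08) in TET2KO 1 and by 1.52 (SE 0.22, adjusted p = 1.28e-09) in TET2KO 3. ADM fell by 1.21 (SE 0.26, edgeR adjusted p = 0.000137) in TET2KO 1, by 0.97 (SE 0.25, adjusted p = 0.00123, lost without TET2KO 2 replicate 2) in TET2KO 2 and by 0.92 (SE 0.25, adjusted p = 0.00324, lost without WT replicate 1 or TET2KO 3 replicate 1) in TET2KO 3. VIP fell by 0.86 (SE 0.045, edgeR adjusted p = 1.04e-45) in TET2KO 1 and by 1.08 (SE 0.046, adjusted p = 2.73e-59) in TET2KO 3, and rose by 0.24 (SE 0.041, adjusted p = 2.22e-07) in TET2KO 2. CRH rose by 0.74 (SE 0.049, edgeR adjusted p = 4.00e-33) in TET2KO 1 and by 0.48 (SE 0.050, adjusted p = 2.23e-16) in TET2KO 2.

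Of 12 receptors of somatostatin, NPY and galanin, 4 were tested in batch 1 and 6 in batch 2. The autoreceptor gene NPY2R fell by 0.20 (SE 0.047, edgeR adjusted p = 0.000370) at 10 µM, as the only one called, and by 0.26 (SE 0.049, adjusted p = 1.05e-06) at 50 µM. Its 10 µM call was lost without 10 µM replicate 2, with DESeq2 and in the fit of all 14 libraries. GALR1 was called higher at 50 µM, with 10 counts over the 2 H2O libraries and 26 over the 2 at 50 µM. It passed the filter on low counts in batch 1 only through 50 µM, where it is high, so no p-value is given. That call was lost without H2O replicate 1 or 50 µM replicate 1, with DESeq2 and in the fit of all 14 libraries. Over all genes 11.6% were higher and 11.1% lower at 10 µM, and 30.4% and 31.1% at 50 µM. In TET2KO 1, 2 and 3 these shares were 7.79% and 9.72%, 12% and 14.3%, and 8.9% and 9.96%. Of the receptors, 2 were higher in TET2KO 1, 4 in TET2KO 2 and 1 in TET2KO 3, where 1 was lower. SSTR1 rose in all 3, from 19 counts over the WT libraries to 86, 58 and 90 (edgeR adjusted p = 0.00129, 0.0374 and 0.000682). Its call was lost in TET2KO 1 without WT replicate 1, in TET2KO 3 without TET2KO 3 replicate 1 and in TET2KO 2 without any one of the 4 libraries compared. NPY2R rose by 0.44 (SE 0.060, edgeR adjusted p = 1.22e-10) in TET2KO 2. GALR1 rose by 1.18 (SE 0.21, edgeR adjusted p = 6.57e-07) in TET2KO 2 and by 0.66 (SE 0.23, adjusted p = 0.0278) in TET2KO 1, the latter lost without either WT replicate or TET2KO 1 replicate 2. SSTR2 rose by 0.46 (SE 0.088, edgeR adjusted p = 5.85e-06) in TET2KO 2 and fell by 0.33 (SE 0.10, adjusted p = 0.0103, lost without WT replicate 1 or TET2KO 3 replicate 1) in TET2KO 3.

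Of 8 regulators, 3 were higher and 4 lower at 50 µM, beside 30.4% and 31.1% of all genes. REST, the repressor of neuronal genes, rose from 1.73 ± 0.0161 to 3.92 ± 0.160 CPM (1.18, SE 0.16, edgeR adjusted p = 2.60e-11). The neuroendocrine factor genes INSM1 and NEUROD1 fell by 0.91 (SE 0.30, edgeR adjusted p = 0.00498) and 0.78 (SE 0.12, adjusted p = 1.25e-09). The INSM1 call was lost without 50 µM replicate 1, with DESeq2 and in the fit of all 14 libraries. At 10 µM 2 regulators were called, both higher, beside 11.6% of all genes higher and 11.1% lower. Among them was the REST corepressor gene RCOR1, higher by 0.13 (SE 0.027, edgeR adjusted p = 6.40e-05). In batch 2, 1 regulator was higher in TET2KO 1, 4 were higher and 1 lower in TET2KO 2, and 3 were lower in TET2KO 3. The shares over all genes were 7.79% and 9.72%, 12% and 14.3%, and 8.9% and 9.96%. The call in TET2KO 1 was lost without WT replicate 2, and the 5 in TET2KO 2 became 1 without WT replicate 2, 2 without WT replicate 1 or TET2KO 2 replicate 1, and 3 without TET2KO 2 replicate 2 or with DESeq2. REST rose by 0.41 (SE 0.12, edgeR adjusted p = 0.00332, lost without WT replicate 2) in TET2KO 2 and fell by 0.50 (SE 0.13, adjusted p = 0.00254, lost without WT replicate 1 or TET2KO 3 replicate 1) in TET2KO 3. INSM1 fell in TET2KO 2 by 0.54 (SE 0.20, edgeR adjusted p = 0.0353), a call lost without either WT replicate or TET2KO 2 replicate 1 and with DESeq2. RCOR1 fell in TET2KO 3 by 0.21 (SE 0.045, edgeR adjusted p = 0.000122).

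Between the 2 doses, 26.2% of all genes were higher and 26.5% lower at 50 µM. CPE and PAM were the 2 called processing genes, higher by 0.12 (SE 0.021, edgeR adjusted p = 3.45e-07) and 0.11 (SE 0.019, adjusted p = 4.87e-07) at 50 µM. Of the vesicle genes 9 were higher and 8 lower, with BAIAP3 at 2.21 (SE 0.32, edgeR adjusted p = 7.33e-10), SLC18A2 at -0.77 (SE 0.20, adjusted p = 0.000718) and SYT7 at -0.60 (SE 0.066, adjusted p = 5.32e-15). Of the precursors 5 were higher and 2 lower, with CRH at 1.35 (SE 0.040, edgeR adjusted p = 7.63e-74) and CARTPT at -2.25 (SE 0.20, adjusted p = 3.31e-21). NTS was called at 1.22 (SE 0.47), but it passed the filter on low counts only because of 50 µM, so no p-value is given. The NTS call was lost without 10 µM replicate 1 or 50 µM replicate 2, with DESeq2 and in the fit of all 14 libraries. Of the regulators 3 were higher and 4 lower, with REST at 1.29 (SE 0.16, edgeR adjusted p = 3.72e-12), INSM1 at -1.26 (SE 0.28, adjusted p = 5.92e-05) and NEUROD1 at -0.67 (SE 0.12, adjusted p = 3.50e-07). Of the 4 receptors 0 passed in edgeR's test or DESeq2. GALR1, which was tested in batch 1 only through 50 µM, was at 1.02.

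**Figure D4:**
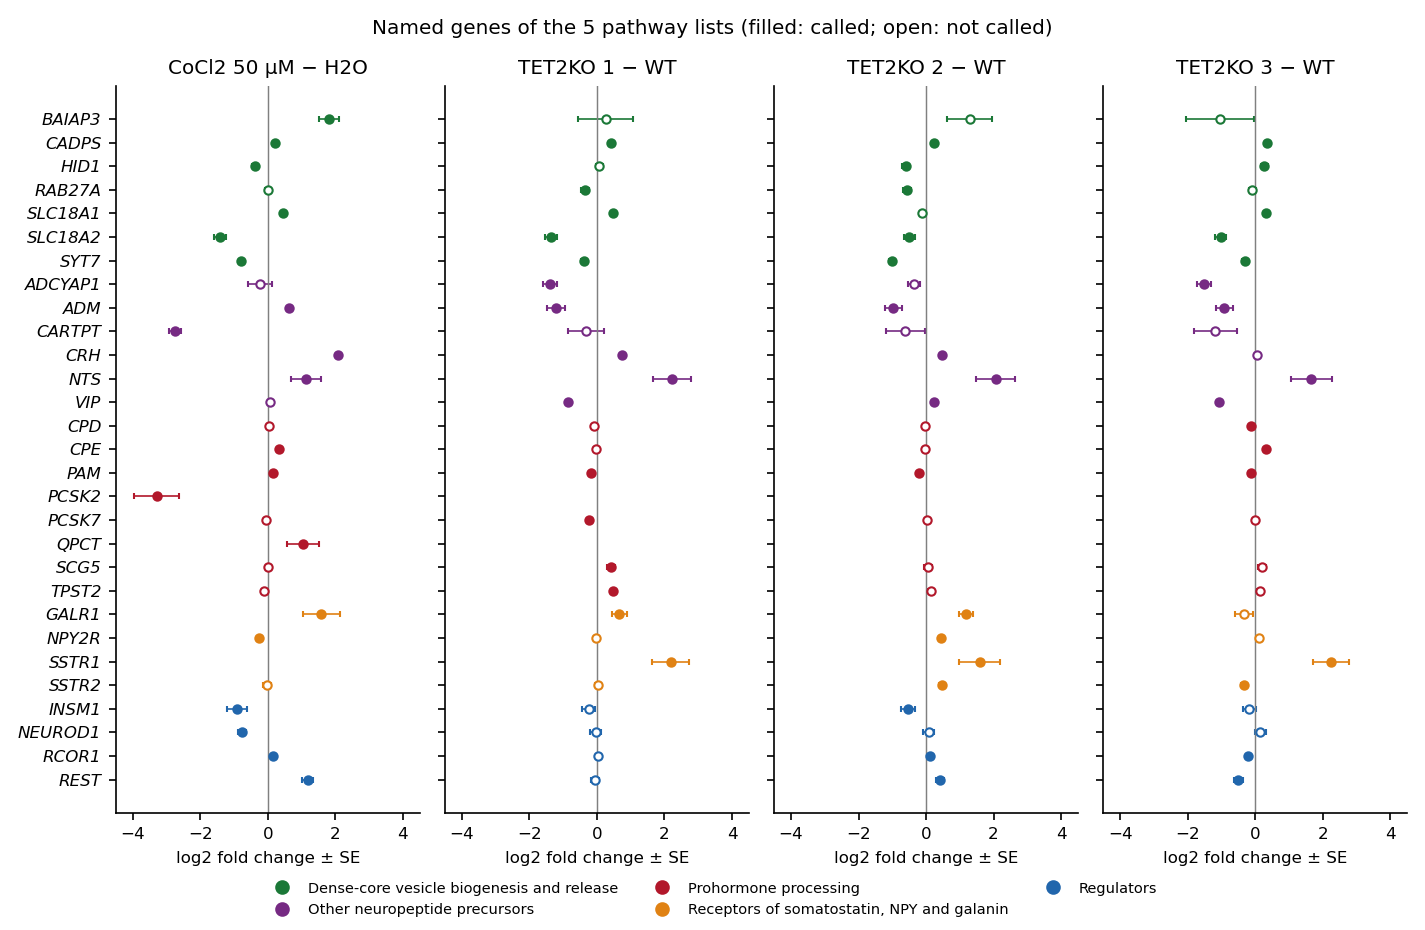
Log2 fold change with its SE of the named genes of the 5 lists at 50 µM CoCl2 and in the populations labelled TET2KO, filled where called and open where not, with genes that were not tested left blank. CRH is at 2.09 and CARTPT at -2.75 at 50 µM, and NTS and SSTR1 lie to the right in all 3 TET2KO panels.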

How the data were processed

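Raw counts per gene name were used as the authors deposited them. Per the file headers, they came from featureCounts 1.5.3 (batch 1) and 2.0.5 (batch 2) run on the protein-coding part of GENCODE 33 (GRCh38) by exon, with the paired-end option and no strand option. The submitters' processing notes also name Trimmomatic 0.36 and STAR 2.6.1d. In batch 2, 77.3% to 80.5% of counts from 1 to 10 were even, against 39.0% to 42.3% in batch 1, so most batch 2 counts are reads, 2 to a pair. The 13 mitochondrial genes were at 0 in batch 1 and took 1.71% to 3.17% of counts in batch 2. None of the 10 genes overlaps another gene of these protein-coding tables. Reads of non-coding or antisense transcripts, which counting without strand would include, were not examined.

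Each batch had its own fit with edgeR 4.0.16 under R 4.3.3, after TMM scaling and filterByExpr, by glmQLFit (robust = TRUE, legacy = FALSE) and glmQLFTest. A call means an adjusted p under 0.05 (Benjamini-Hochberg) across the genes tested, 13636 in batch 1 and 14061 in batch 2. The negative binomial dispersion was kept at 0.00011 or above, because this edgeR release computes the deviance wrongly at very low dispersions. That floor raised the batch 1 estimate of 7.66e-05 and left batch 2 at 0.000463. The SE was obtained from the log2 fold change and the F statistic of its test. CPM uses TMM-scaled totals, and RPKM divides it by exon length. The pipeline was tested on simulated counts. Replicates differed by more than counting noise in all 7 groups (chi-square of 1.23 to 1.46 per gene in batch 1 and, with counts halved, 1.95 to 2.83 in batch 2), so none was merged.

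Promoters were taken from RefSeq and searched on both strands for exact letters, with exons from GENCODE 29 setting how much was printed. The 10 genes, the 5 pathway lists, the marker lists and the tests were chosen with earlier results of these data known. Named genes were the 10, and from each list up to 3 called genes of the largest absolute log2 fold change in each comparison. Further values of these genes were added after they were seen. Some genes that the rule names are not reported here. Alternatives were DESeq2 1.42.0, RLE factors, no filter on low counts, the older quasi-likelihood method, no dispersion floor, all 14 libraries in 1 fit, a replicate block, batch 2 counts halved, and each library left out in turn.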

Additional observations from a re-analysis of the deposited data

Results flagged for a closer look

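For 6 of the 10 genes, the change against WT differed between the populations labelled TET2KO 1, 2 and 3 by a direct test (edgeR's quasi-likelihood F-test, adjusted over all genes), as did 37.6% of all genes tested. The gap between the highest and the lowest of the 3 log2 fold changes was 0.92 for NPY, 0.42 for VGF, 0.39 for PCSK1, 0.30 for GAL, 0.20 for CHGB and 0.18 for CHGA. The changes against WT of these genes were known when the genes were chosen, so the direct test is no independent support. SST is not counted, since it was tested in this batch only through TET2KO 2, where it is high. NPY was highest in TET2KO 2, while VGF, GAL and PCSK1 were lowest there. With 2 libraries per group, no single library could be examined as an outlier. Among other genes of the pathway, genes with such a difference were VIP (edgeR adjusted p = 2.22e-82), CRH (adjusted p = 1.99e-28), ADCYAP1 (adjusted p = 1.74e-06) and AGRP (adjusted p = 0.0385), and the receptor genes SSTR2 (adjusted p = 5.45e-13), NPY2R (adjusted p = 7.66e-12) and GALR1 (adjusted p = 8.44e-09). They were further SLC18A1 (edgeR adjusted p = 4.62e-20), HID1 (adjusted p = 5.87e-14), SYT7 (adjusted p = 5.16e-12), CADPS (adjusted p = 0.00355), RAB27A (adjusted p = 0.00392), SLC18A2 (adjusted p = 0.000396) and BAIAP3 (adjusted p = 0.0407), CPE (adjusted p = 1.94e-13), TPST2 (adjusted p = 1.28e-05), PCSK7 (adjusted p = 0.00236) and SCG5 (adjusted p = 0.0148), and the regulator genes RCOR1 (adjusted p = 2.92e-10) and REST (adjusted p = 8.31e-10). AGRP and BAIAP3 were called too, but both passed the filter on low counts in batch 2 only because of TET2KO 2, where they are highest. No p-value is therefore given for them. AGRP had 16, 20, 26 and 2 counts in WT and TET2KO 1, 2 and 3, and BAIAP3 17, 20, 42 and 8. The AGRP call was lost without either replicate of TET2KO 2 or TET2KO 3, that of BAIAP3 without TET2KO 2 replicate 1 or either TET2KO 3 replicate, and that of SCG5 without either TET2KO 1 replicate or TET2KO 2 replicate 1. Those of AGRP and BAIAP3 were also lost with no filter on low counts, and that of BAIAP3 with DESeq2 and with the replicate block. The call of PCSK7 was lost without TET2KO 1 replicate 1, that of CADPS without TET2KO 2 replicate 1 and that of RAB27A without TET2KO 3 replicate 1. TET2 itself differed too (edgeR adjusted p = 6.95e-08).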

How the results depend on the processing

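Of 1029 values of the 10 genes under 22 alternatives, 973 kept their side of the threshold, 45 lost a call, 11 gained one and none reversed, where a change of sign between 2 values that were both uncalled was not counted. Of 3120 values of TET2 and named pathway genes, 2987 kept their side, 126 lost a call, 7 gained one and none reversed. The number of the 10 genes called at 10 µM was 9, and 4 in the fit of all 14 libraries. Leaving out 1 library at a time gave 5 to 9 at 10 µM (5 without H2O replicate 1), 3 to 7 in TET2KO 2 (3 without WT replicate 2 or TET2KO 2 replicate 1, against 6 with every library) and 4 to 7 in TET2KO 3 (4 without TET2KO 3 replicate 1). The replicate block gave 9, 9 and 9 calls for 10 µM, 50 µM and the dose difference, 6, 6 and 7 for TET2KO 1, 2 and 3, and 7 for the differences among them (SST included in TET2KO 2 and in the last), and changed, of the calls of the 10 genes, only that of SCG3 in TET2KO 1. Correlations of replicate deviations between groups ran from -0.036 to 0.074. The labels do not say what the replicate numbers stand for, and these small values do not settle whether same-numbered libraries were handled together. Over all genes, calls at 10 µM fell from 3098 to 1122 with DESeq2, 796 with all 14 libraries in 1 fit (4678 against 7197 between doses) and 1861 without 10 µM replicate 2. They fell from 2462 to 1618 without WT replicate 1 and 1386 without TET2KO 1 replicate 2 for TET2KO 1, from 3698 to 2411 without TET2KO 2 replicate 1, and for TET2KO 3 from 2653 to 1620 without WT replicate 1 and 1566 without TET2KO 3 replicate 1. The cause was not tested. Depth limits SST in batch 2, and DESeq2 gave no adjusted p for its TET2KO 2 value.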
